A study of Mus musculus with 12 samples.

Results

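The unfolded protein response and the amino acid response were followed through 33 genes, out of 12393 genes that the platform annotation names by 1 symbol, in ET cells treated with the dioxin TCDD or with its solvent. The rule that lists the genes goes by their function and uses no values, although the list was drawn up with earlier results of these data known. Each was read from 1 probe set, the one with the highest mean over the 12 arrays. All 33 were on the array, and for all 33 that probe set lay above the filter on low values, a mean log2 level of 3.98. They fell into 5 stress sensors and transcription factors, 14 chaperones and folding enzymes of the endoplasmic reticulum (ER), 4 genes of ER degradation and 10 genes of the amino acid response.

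ET is described in the labels as a mouse line from fetal cortical thymic epithelium, and all arrays came from this 1 line. Cells received 5 nM TCDD (2,3,7,8-Tetrachlodibenzo-p-dioxin in the labels) or 1,4-dioxane at 0.05% by volume, and RNA was taken after 2, 4 and 6 h, which made 6 groups of 2 Affymetrix arrays: TCDD 2 h and solvent 2 h, TCDD 4 h and solvent 4 h, TCDD 6 h and solvent 6 h. The study addressed the genes that respond when TCDD activates the aryl hydrocarbon receptor (AhR) in these cells. The design text speaks of biological duplicates without naming the step that was repeated, so p-values measured the spread between these arrays, which may be partly technical. Groups were taken from the titles. The treatment field of the second 4 h TCDD array named the solvent, and a time of 4 h stood in the description of the arrays titled 6 h solvent.

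Unfolded proteins in the ER activate the membrane sensors IRE1 (gene Ern1), PERK (gene Eif2ak3) and ATF6. IRE1 splices the mRNA of Xbp1, a transcription factor that raises chaperones and ER degradation. PERK slows translation through eIF2 and thereby favours translation of Atf4, a transcription factor for amino acid transport and synthesis. Lack of amino acids reaches Atf4 through another eIF2 kinase, GCN2, so the amino acid genes can move without the chaperones. Splicing of Xbp1 and translation of Atf4 are not visible in these total mRNA levels. Cortical thymic epithelium presents peptides to thymocytes through the secretory pathway that the ER chaperones serve.

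The promoter sequences behind these branches are shown here because they hold the elements through which ATF6 and ATF4 are known to act on the chaperone and amino acid genes. RefSeq windows of assembly GRCm38.p6 were found for 30 of the 33 genes (31 windows; Hyou1, Manf and Slc7a5 had no entry), and the 250 bases before each start were searched on both strands, with N for any base. The ER stress response element that ATF6 binds together with NF-Y is written CCAAT and CCACG with 9 bases N between them. It was found for 7 of 30 members and for 0.13% of all 27025 genes with a window. The members were the chaperone genes Hspa5, Hsp90b1, Calr, Canx, Pdia6 and Dnajc3 and the ER ubiquitin ligase gene Syvn1, with 2 matches in Hsp90b1. Its second form, ATTGG and CCACG with 1 base N between them, was found in Herpud1 alone among the members and for 0.037% of all genes.

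The core of the element that ATF4 binds together with a C/EBP partner, TGATGNAA, was found for Asns, Chac1 and Herpud1 (3 of 30 members, 3.91% of all genes). The XBP1 element TGACGTGG was found for 0 of 30 members and for 0.603% of all genes. The AhR core TNGCGTG was found for Atf4, Psat1 and Edem1 (3 of 30 members, 4.76% of all genes). No matches of different motifs overlapped in the members. A match is a run of letters and not a measured site, and a window without one says nothing about the factor. The sequences below run 5′ to 3′ towards the start, with the matched ER stress or ATF4 letters in capitals. The first 4 carry the ER stress element, Herpud1 carries its second form and, farther from the start, the ATF4 core, and Asns and Chac1 carry the ATF4 core.
Hspa5, chr2:34771840-34772089, plus strand: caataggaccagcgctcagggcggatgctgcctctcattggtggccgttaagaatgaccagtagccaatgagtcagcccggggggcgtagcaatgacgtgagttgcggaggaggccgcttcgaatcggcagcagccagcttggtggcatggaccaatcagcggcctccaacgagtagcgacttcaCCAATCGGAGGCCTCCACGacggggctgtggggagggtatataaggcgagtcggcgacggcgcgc
Hsp90b1, chr10:86705445-86705694, minus strand: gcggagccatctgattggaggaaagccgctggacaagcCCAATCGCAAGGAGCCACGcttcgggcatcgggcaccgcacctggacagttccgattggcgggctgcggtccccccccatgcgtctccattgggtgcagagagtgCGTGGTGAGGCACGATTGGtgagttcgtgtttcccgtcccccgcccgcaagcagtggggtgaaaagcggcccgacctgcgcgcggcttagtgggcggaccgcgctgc
Dnajc3, chr14:118937682-118937931, plus strand: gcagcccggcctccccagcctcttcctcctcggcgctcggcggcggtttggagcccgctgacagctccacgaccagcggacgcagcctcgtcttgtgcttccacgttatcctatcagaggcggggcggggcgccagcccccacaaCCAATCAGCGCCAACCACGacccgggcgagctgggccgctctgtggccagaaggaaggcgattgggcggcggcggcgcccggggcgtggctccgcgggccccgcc
Pdia6, chr12:17266339-17266588, plus strand: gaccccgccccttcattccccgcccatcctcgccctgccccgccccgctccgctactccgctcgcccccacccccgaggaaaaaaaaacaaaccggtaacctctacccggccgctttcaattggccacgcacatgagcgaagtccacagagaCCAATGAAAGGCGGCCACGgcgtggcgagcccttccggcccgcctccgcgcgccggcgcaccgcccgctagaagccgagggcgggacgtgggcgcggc
Herpud1, chr8:94386179-94386428, plus strand: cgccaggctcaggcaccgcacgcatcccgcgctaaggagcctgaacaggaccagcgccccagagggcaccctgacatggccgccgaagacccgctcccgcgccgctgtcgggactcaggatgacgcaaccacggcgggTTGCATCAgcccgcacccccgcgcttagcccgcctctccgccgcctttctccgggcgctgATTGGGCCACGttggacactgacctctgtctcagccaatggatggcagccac
Asns, chr6:7693210-7693459, minus strand: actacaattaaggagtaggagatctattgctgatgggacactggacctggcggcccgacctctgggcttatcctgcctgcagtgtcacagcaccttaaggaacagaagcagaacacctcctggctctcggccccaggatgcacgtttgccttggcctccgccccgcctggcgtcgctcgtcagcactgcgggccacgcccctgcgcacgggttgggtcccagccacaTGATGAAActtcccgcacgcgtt
Chac1, chr2:119350992-119351241, plus strand: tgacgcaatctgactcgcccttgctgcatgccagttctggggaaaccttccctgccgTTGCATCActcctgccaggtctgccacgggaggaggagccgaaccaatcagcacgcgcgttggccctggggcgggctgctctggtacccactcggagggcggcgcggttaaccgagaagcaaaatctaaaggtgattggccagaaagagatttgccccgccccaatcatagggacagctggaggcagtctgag

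**Figure D1:**
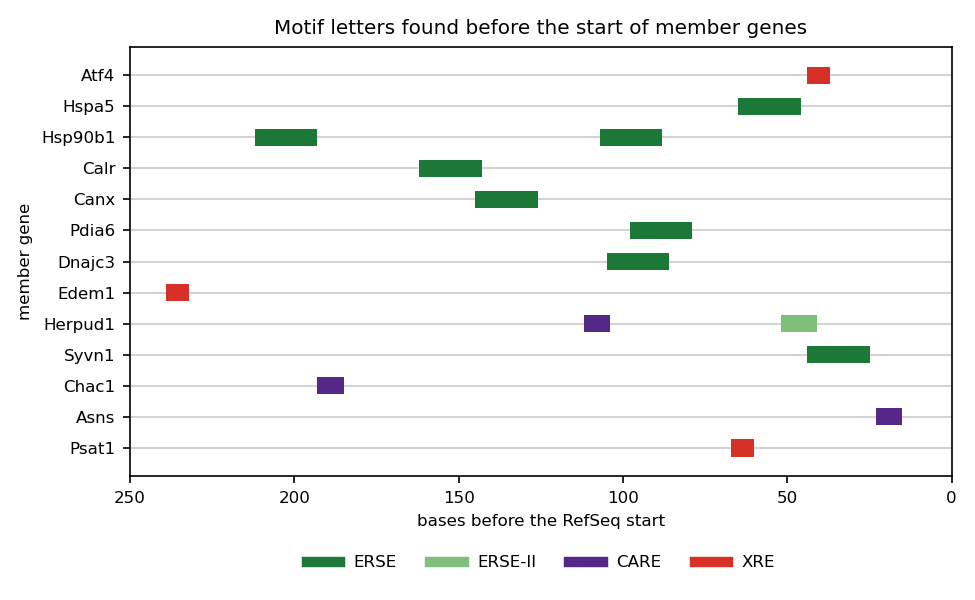
Position of motif letters before the RefSeq start of the 13 member genes that held any. The x axis gives bases before the start, each bar spans a match on either strand, and colour gives the motif (CARE, the ATF4 core; XRE, the AhR core). The ER stress element (ERSE) appears in 7 genes and its second form (ERSE-II) in Herpud1.

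The treatment labels were checked with Cyp1a1, the best-known AhR target, whose log2 level lay between 9.3 and 11.1 on the 6 TCDD arrays and between 4.0 and 5.5 on the 6 solvent arrays. Of the markers of cortical thymic epithelium on the array, 5 of 11 lay above the filter; Prss16, Ly75, Krt18, Epcam, Pax1 and Cd83 did not. All 10 markers of fibroblasts and mesenchyme and 3 of 7 of thymocytes and other blood cells did. Clustering put 7 arrays in the largest of 4 clusters, and 5 arrays stood apart from it. The first 4 h TCDD array was among these 5, with the second arrays of the 2 h and 6 h groups, TCDD and solvent alike. The metallothionein gene Mt1 had log2 levels of 9.6 to 10.8 on these 5 and of 7.1 to 7.4 on the other 7. Both 4 h solvent arrays belonged to the 7, so at 4 h treatment was in part tied to this split.

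Under TCDD, none of the 33 genes passed the test at any time. The count past the test (limma, Benjamini-Hochberg adjusted p under 0.05) was 0 after each of 2, 4 and 6 h of treatment and also 0 when the 3 times were averaged, and 0 members had an unadjusted p under 0.05 in any of these. Of all 15844 tested probe sets, 0.0189% passed with 2 h of TCDD, 0.0126% with 4 h and 0.00631% with 6 h, and 0.0947% passed for the average, so few calls would fall among 33 genes at the background rate. Averaged over the times, the members' log2 changes ran from -0.23 (Dnajc3) to 0.17 (Phgdh), with a median of -0.02, against a median of 0 over all tested probe sets. The 95% intervals of the average lay between -0.69 and 0.63 for every member, inside a 2-fold change either way. Single times were less precise, with intervals reaching from -1.43 (Dnajb9 at 4 h) to 1.57 (Hsp90b1 at 6 h). A gene that did not pass is not shown to be unchanged within those limits.

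**Figure D2:**
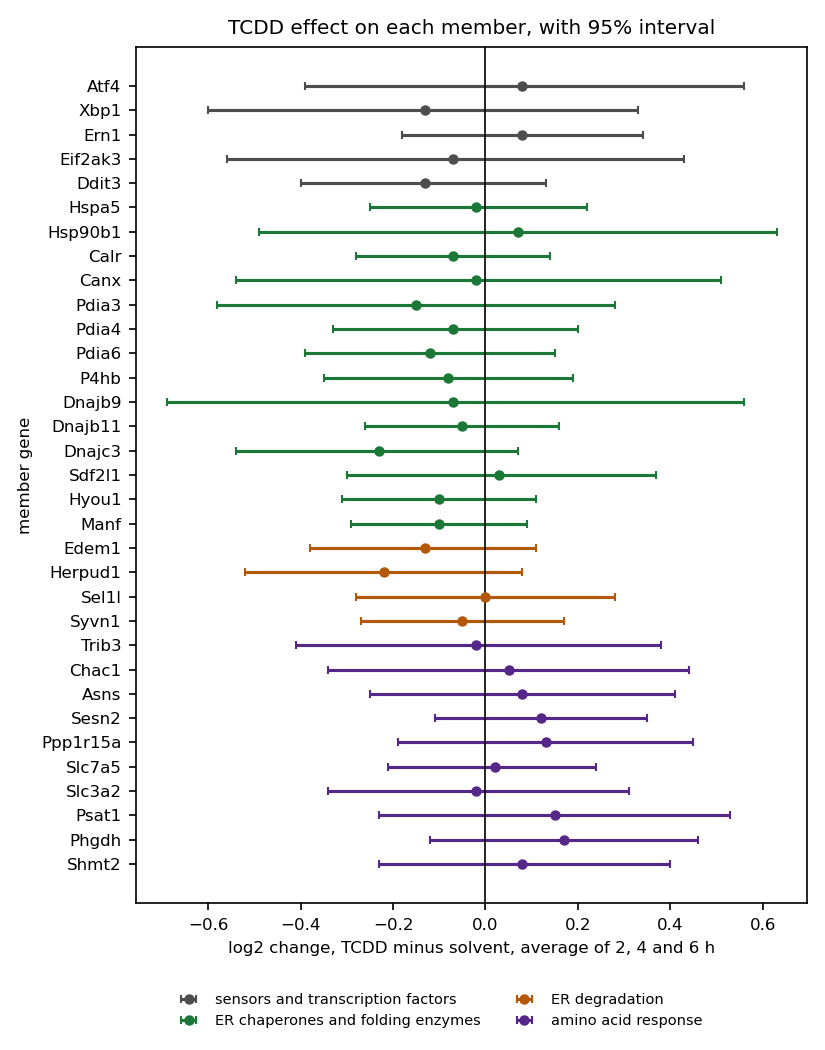
Log2 change of each member, TCDD minus solvent averaged over 2, 4 and 6 h (x axis), with the 95% interval from the limma fit to 12 arrays as bars and the subgroup as colour. Every interval spans 0, and all lie between -0.69 and 0.63.

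Medians of the subgroups were small as well. The amino acid response genes had a median log2 change of 0.22 at 2 h (9 of 10 above 0, 1 at 0), 0.12 at 4 h and -0.10 at 6 h. The ER chaperones had 0.10 at 2 h (10 of 14 above 0), -0.22 at 4 h (12 of 14 below 0) and -0.07 at 6 h. Of all 15844 tested probe sets, 6943 lay above 0 at 2 h and 7353 below 0 at 4 h. Their medians at the 3 times were 0, 0 and -0.05. Leaving out a single array moved several of the subgroup medians. Without the second 2 h TCDD array the amino acid median at 2 h was -0.02, and without the first it was 0.43. Without the first 4 h TCDD array the one at 4 h was -0.17, and without the second it was 0.40. At 6 h it was 0.03 without the first TCDD array and -0.25 without the second. The chaperone median at 4 h was -0.10 without the first TCDD array and -0.37 without the second, and at 2 h it was -0.02 without the second solvent array.

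At 2 h the TCDD arrays lay wholly above the solvent arrays for 0 of 33 members (7.16% of all tested probe sets) and wholly below for 1, Dnajc3 (6.68% of all). At 4 h they lay above for 1, Phgdh (7.95% of all), and below for 6, namely Ddit3, Calr, Pdia4, Pdia6, P4hb and Herpud1 (18.2% of members, 11.1% of all). At 6 h they lay above for 1, Hsp90b1 (9.69% of all), and below for 4, namely Hspa5, Manf, Trib3 and Ppp1r15a (12.1% of members, 9.66% of all). These counts are descriptions of 2 arrays against 2 by the chosen probe sets, and none of the named genes passed the test. All other tested probe sets of Dnajc3 at 2 h overlapped or touched, as did those of Hsp90b1 and Trib3 at 6 h. Some of those of Phgdh and Calr at 4 h did too. The other probe sets of Herpud1 at 4 h and Hspa5 at 6 h stayed apart. The test of a change of the TCDD effect over time passed for 0 members and for 0% of all tested probe sets, with 0 members and 105 of 15844 probe sets at an unadjusted p under 0.05 (limma moderated F-test).

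Of the sensors and transcription factors, Atf4 and Xbp1 differed more between arrays of 1 group than between treatments. Atf4 read 9.8 and 10.7 after 2 h with TCDD against 9.8 and 10.4 with solvent, 10.5 and 10.0 against 10.0 and 10.0 after 4 h, and 9.8 and 10.6 against 10.1 and 10.6 after 6 h (log2 levels of the first and second array). By the chosen probe set, the 5 arrays that stood apart held its 5 highest values, between 10.4 and 10.7, in both treatments. The other probe sets of Atf4 overlapped between these 5 arrays and the rest. The TCDD average of the chosen probe set was 0.08 ± 0.21 (SE, n = 6 against 6; limma adjusted p = 1).

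Xbp1 read 9.4 and 9.2 after 2 h with TCDD against 9.5 and 9.4 with solvent, 8.9 and 9.6 against 9.5 and 9.5 after 4 h, and 9.5 and 8.6 against 9.5 and 8.6 after 6 h. Both second 6 h arrays were low, at the same value with TCDD and with solvent, and the first 4 h TCDD array came next. Its TCDD average was -0.13 ± 0.21 (limma adjusted p = 1). Among the other 3 probe sets of Xbp1, 2 also read lower on the second 6 h arrays, while the third had second minus first differences of 0 with TCDD and 0.1 with solvent.

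Ddit3, which encodes the pro-apoptotic factor CHOP downstream of Atf4, read 7.1 and 7.7 after 2 h with TCDD against 7.6 and 7.3 with solvent, 7.4 and 7.4 against 7.7 and 7.7 after 4 h, and 7.6 and 7.6 against 7.7 and 7.6 after 6 h. The 4 h groups did not overlap, at a log2 change of -0.30 (95% interval -0.76 to 0.16; limma adjusted p = 0.973), and the other times overlapped. Its TCDD average was -0.13 ± 0.12. Ern1 and Eif2ak3 had TCDD averages of 0.08 ± 0.12 and -0.07 ± 0.22. Eif2ak3 differed by 1.4 between the 4 h TCDD arrays, 5.2 on the first and 6.6 on the second.

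**Figure D3:**
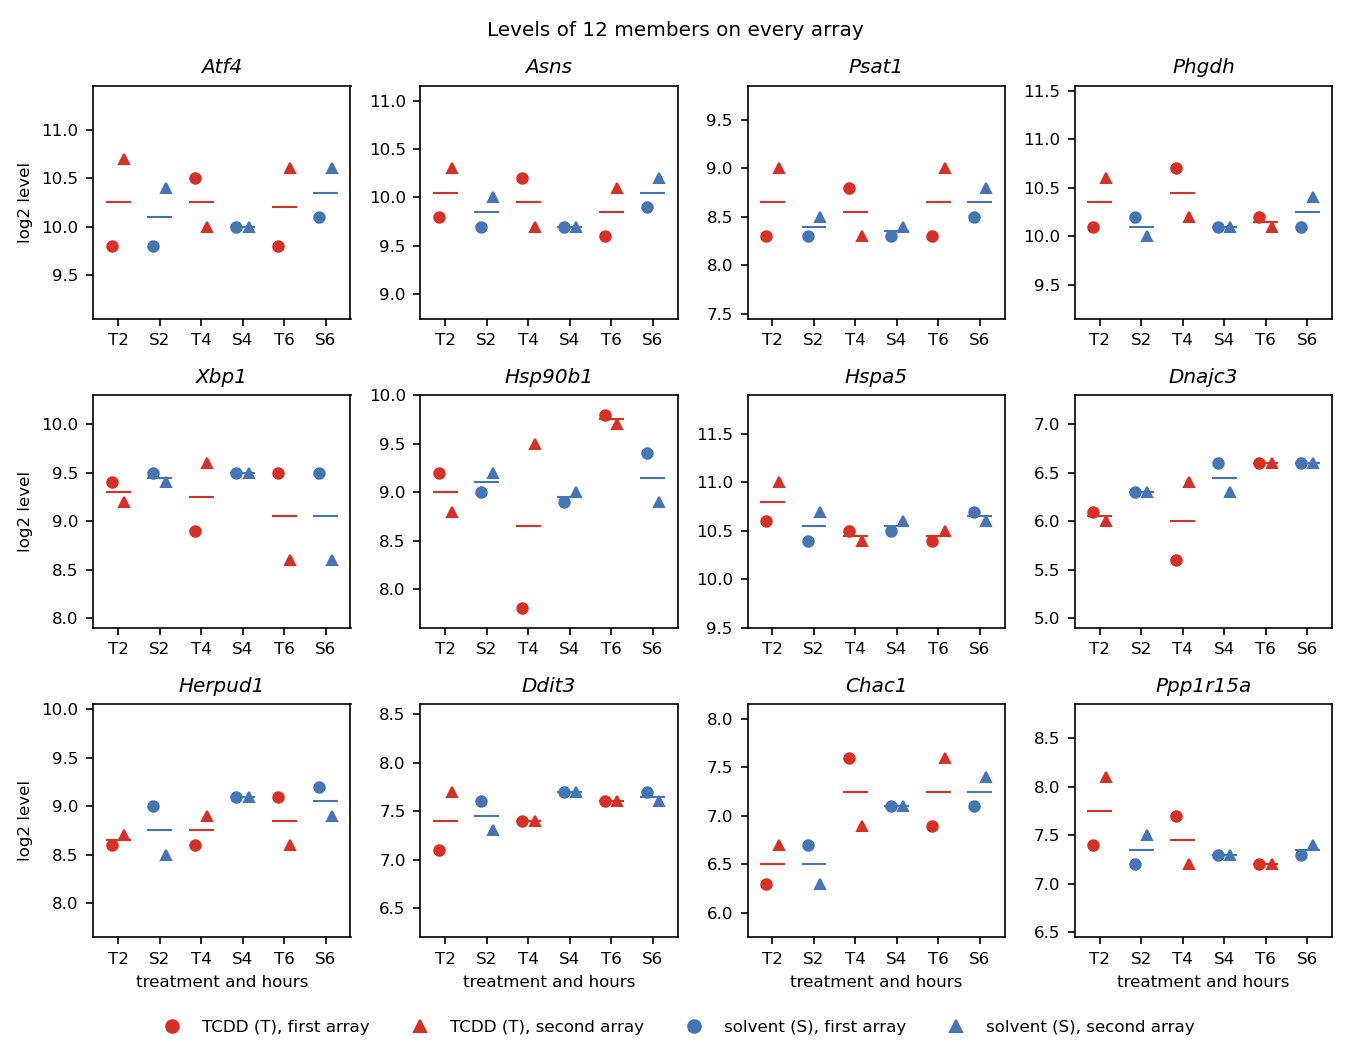
Log2 levels of 12 members on all 12 arrays (y axis, each panel with the same span) by treatment and hours (x axis; T, TCDD; S, solvent). Circles are first arrays, triangles second arrays and lines the mean of 2 arrays; for Atf4 and Asns the high points lie in both treatments, and for Chac1 the 2 h arrays lie lowest.

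Of the 14 ER chaperone and folding genes, 5 had their lowest value, or tied for it, on the first 4 h TCDD array and 5 on the second 6 h TCDD array. Both arrays were among the 5 that stood apart. The share of all tested probe sets with their lowest value there was not counted, so these numbers show nothing particular to the chaperones. Hspa5, which encodes BiP, the main ER chaperone and a keeper of the sensors in their inactive state, read 10.6 and 11.0 after 2 h with TCDD against 10.4 and 10.7 with solvent, 10.5 and 10.4 against 10.5 and 10.6 after 4 h, and 10.4 and 10.5 against 10.7 and 10.6 after 6 h. The TCDD effect was 0.25 at 2 h, -0.10 at 4 h and -0.20 at 6 h, and the average was -0.02 (95% interval -0.25 to 0.22; limma adjusted p = 1). Its highest value, 11.0, was that of the second 2 h TCDD array.

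Hsp90b1, the ER member of the HSP90 family (GRP94), read 9.2 and 8.8 after 2 h with TCDD against 9.0 and 9.2 with solvent, 7.8 and 9.5 against 8.9 and 9.0 after 4 h, and 9.8 and 9.7 against 9.4 and 8.9 after 6 h. The first 4 h TCDD array lay 1.7 below the second. At 6 h both TCDD arrays lay above both solvent arrays, a log2 change of 0.60 that did not pass (limma adjusted p = 1), and its other probe set gave 0.30 at 6 h and an average of -0.10, against 0.07 from the chosen one.

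The same first 4 h TCDD array was low for other chaperone genes, chosen after their values were seen. The second 4 h TCDD array exceeded it by 1.6 for Dnajb9, a co-chaperone of BiP, by 1.5 for Canx (calnexin, a lectin chaperone), by 1.0 for Pdia3, a disulfide isomerase that works with calnexin, and by 0.8 for Dnajc3, a BiP co-chaperone also known as P58IPK. For Calr, calreticulin, the soluble partner of calnexin, the difference was 0, and for Hspa5, Dnajb11, Hyou1, Manf and Sdf2l1 it lay between -0.4 and -0.1. The chaperones therefore did not move together on that array. On it the median of fibroblast and mesenchyme markers was 0.42 below their mean over the arrays (2 of 10 markers above). Other lists lay above their means on it, by medians of 0.17 for cortical epithelium markers (4 of 5 above) and 0.53 for blood cell markers (3 of 3 above). Heat shock and metal response genes were 0.52 above (8 of 11). The part of these shifts in the chaperone values was not tested. In RNA from whole cultures, fewer cells of a type and less RNA per cell cannot be told apart.

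Pdia3 read 9.3 and 8.9 after 2 h with TCDD against 9.5 and 9.1 with solvent, 8.3 and 9.3 against 9.1 and 9.1 after 4 h, and 9.8 and 9.2 against 9.6 and 9.3 after 6 h. Treatments overlapped at every time, and its TCDD average was -0.15 ± 0.19 (limma adjusted p = 1).

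Dnajc3 read 6.1 and 6.0 after 2 h with TCDD against 6.3 and 6.3 with solvent, 5.6 and 6.4 against 6.6 and 6.3 after 4 h, and 6.6 on every array of both treatments after 6 h. By this probe set the 2 h TCDD arrays lay just below the solvent arrays, and the 6 h arrays were alike. Its TCDD average of -0.23 ± 0.14 was the lowest of the 33 and did not pass (95% interval -0.54 to 0.07; limma adjusted p = 1). Its other 3 probe sets gave averages of 0.07, 0.08 and 0.08, of the opposite sign. By the chosen probe sets, 12 of the 14 chaperone genes had an average below 0 and 2 above, with a median of -0.07. Of all 15844 tested probe sets, 7886 lay below 0 and 6977 above. The other probe sets of Canx (0.22 and 0.20) and Hyou1 (0.02) were above 0 as well, while those of Hspa5, Calr and Hsp90b1 were below.

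None of the 4 genes of ER degradation, which returns misfolded proteins to the cytosol for the proteasome, passed the test. Herpud1, a membrane protein of the degradation complex and the gene with both the second ER stress form and the ATF4 core in the sequence shown above, read 8.6 and 8.7 after 2 h with TCDD against 9.0 and 8.5 with solvent, 8.6 and 8.9 against 9.1 and 9.1 after 4 h, and 9.1 and 8.6 against 9.2 and 8.9 after 6 h. The TCDD arrays were lower at 4 h and overlapped the solvent arrays at the other times. Its TCDD average was -0.22 ± 0.13 (95% interval -0.52 to 0.08; limma adjusted p = 1), and its other probe set gave -0.20.

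Edem1, a mannosidase-like protein that hands misfolded glycoproteins to degradation, read 6.9 and 6.9 after 2 h with TCDD against 6.8 and 6.9 with solvent, 6.3 and 6.8 against 6.8 and 6.8 after 4 h, and 6.8 and 6.7 against 7.1 and 6.8 after 6 h. The first 4 h TCDD array was the lowest, and the TCDD average was -0.13 ± 0.11. Its other probe set gave 0.08, of the opposite sign, and read 6.3 on that array, above its lowest value of 5.8. Sel1l, the adaptor of the ubiquitin ligase Syvn1, read 5.8 and 6.3 after 2 h with TCDD against 5.9 and 6.2 with solvent, 6.2 and 5.8 against 6.0 and 5.8 after 4 h, and 5.8 and 5.9 against 6.0 and 5.9 after 6 h. Its average was 0 ± 0.13, with 0.10 and 0.22 from its other 2 probe sets. Syvn1 had an average of -0.05 ± 0.10. By the chosen probe sets no gene of the 4 had an average above 0, beside 6977 of all 15844 tested probe sets above 0.

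The amino acid response genes differed between the 2 arrays of most groups. The median absolute difference between TCDD arrays was 0.50 at 2 h, 0.50 at 4 h and 0.25 at 6 h. Between solvent arrays it was 0.25 at 2 h, 0 at 4 h and 0.25 at 6 h. The median changes with TCDD were 0.22, 0.12 and -0.10. These are signed differences of group means, an unlike measure, so the 2 kinds of difference are not ranked. For Trib3 at 6 h, second minus first differences were 0.1 (TCDD) and 0.2 (solvent), with a TCDD effect of -0.25. Its other probe set gave differences of 0.1 and -0.3 and an effect of -0.10. Asns, asparagine synthetase and a standard ATF4 target whose ATF4 core is shown above, was chosen after its values were seen. It read 9.8 and 10.3 after 2 h with TCDD against 9.7 and 10.0 with solvent, 10.2 and 9.7 against 9.7 and 9.7 after 4 h, and 9.6 and 10.1 against 9.9 and 10.2 after 6 h. The other probe set of Asns did not separate the 5 arrays that stood apart. It read 9.6 on the second 2 h solvent array, among the 5, and 9.8 on the first 6 h solvent array, outside them. By the chosen probe set, Asns had its values of 10.0 and above on the 5 arrays, from both treatments. Its TCDD average was 0.08 ± 0.15 (limma adjusted p = 1).

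Phgdh, the first enzyme of serine synthesis, read 10.1 and 10.6 after 2 h with TCDD against 10.2 and 10.0 with solvent, 10.7 and 10.2 against 10.1 and 10.1 after 4 h, and 10.2 and 10.1 against 10.1 and 10.4 after 6 h. Its average of 0.17 ± 0.13 was the highest of the 33 (95% interval -0.12 to 0.46; limma adjusted p = 1), and the 2 high values were the second 2 h and the first 4 h TCDD arrays. Psat1, the next enzyme of that pathway, read 8.3 and 9.0 after 2 h with TCDD against 8.3 and 8.5 with solvent, 8.8 and 8.3 against 8.3 and 8.4 after 4 h, and 8.3 and 9.0 against 8.5 and 8.8 after 6 h. Its average was 0.15 ± 0.17. At 6 h the second array was the higher for Psat1 in both treatments.

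Ppp1r15a, which encodes the eIF2 phosphatase subunit GADD34 that restores translation, read 7.4 and 8.1 after 2 h with TCDD against 7.2 and 7.5 with solvent, 7.7 and 7.2 against 7.3 and 7.3 after 4 h, and 7.2 and 7.2 against 7.3 and 7.4 after 6 h. Its 8.1 on the second 2 h TCDD array stood above the other 11 values, and the average was 0.13 ± 0.14. Trib3, a pseudokinase that restrains ATF4 (chosen after its values were seen), read 6.4 and 7.3 after 2 h with TCDD against 6.7 and 6.3 with solvent, 7.0 and 6.3 against 6.8 and 6.8 after 4 h, and 6.5 and 6.6 against 6.7 and 6.9 after 6 h. Its average was -0.02 ± 0.18. The remaining averages were 0.12 for Sesn2, a stress-induced regulator of mTORC1, 0.08 for Shmt2, the mitochondrial serine hydroxymethyltransferase, 0.02 for Slc7a5 and -0.02 for Slc3a2, the chains of a large neutral amino acid transporter, and 0.05 for Chac1.

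**Figure D4:**
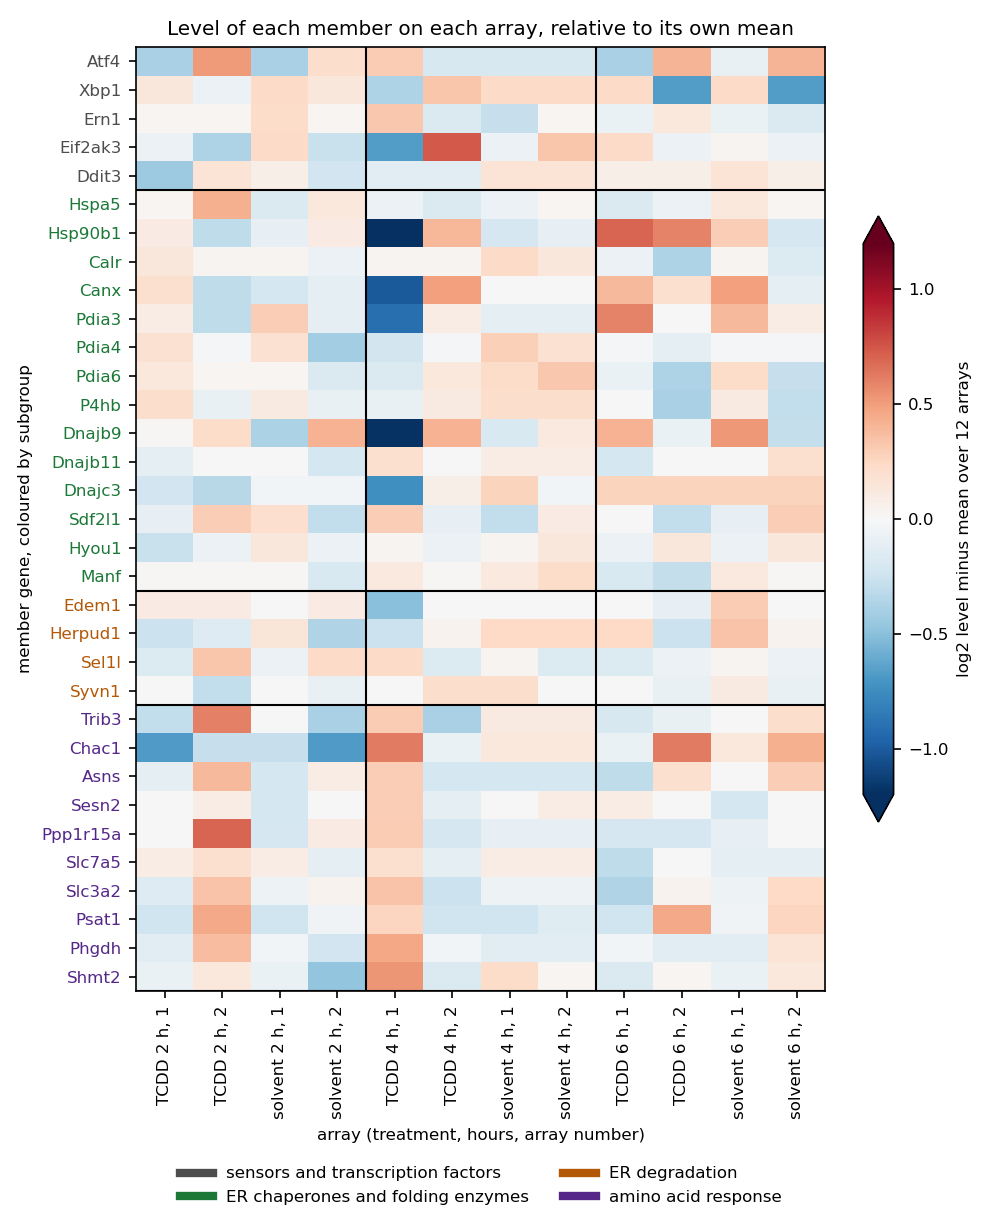
Log2 level of the 33 members on the 12 arrays as the difference from each gene's mean over the arrays (colour scale, cut off at the arrow ends), with genes down the page by subgroup and arrays across by time, TCDD before solvent. The amino acid response genes are above their means on the second 2 h TCDD array (9 of 10) and the first 4 h TCDD array (10 of 10). Of all 15844 tested probe sets, 7853 and 8952 are above their means on these arrays.

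Replicate arrays of 1 group differed in the amino acid genes as follows. On the second 2 h TCDD array 10 of 10 lay above the first, with a median difference of 0.50, while in 2 h solvent 5 lay above and 5 below. At 4 h with TCDD the first array was the higher for 10 of 10, a median second minus first difference of -0.50, while in 4 h solvent 7 of 10 were equal to the 1 decimal that was deposited. At 6 h the second array was the higher for 7 of 10 with TCDD and for 9 of 10 with solvent, each with a median of 0.25. Over all tested probe sets the medians were 0 in 5 groups and -0.10 in 4 h TCDD. Of all 15844, the second array was the higher for 6690 in 2 h TCDD and 6441 in 2 h solvent. In 4 h TCDD the first was the higher for 8514, and in 4 h solvent 3889 were equal. At 6 h the second was the higher for 7119 with TCDD and 7087 with solvent.

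The split into 5 and 7 arrays came from these same values, so the following is a description with no test. By the chosen probe sets, 4 of the 33 genes had ranges that did not overlap between the sets. The share of all tested probe sets that did so was not counted, so this number shows nothing particular to the members. The other probe sets of Atf4 and Asns overlapped between the sets, as given above. Atf4 lay at 10.4 to 10.7 on the 5 arrays and at 9.8 to 10.1 on the 7, and Asns at 10.0 to 10.3 and 9.6 to 9.9. Slc3a2 lay at 10.0 to 10.3 on the 5 and 9.6 to 9.9 on the 7, and P4hb, the protein disulfide isomerase, at 11.1 to 11.4 and 11.5 to 11.7. Mt1 separated the same arrays, as given above, and the heat shock gene Dnajb1 and the heme oxygenase gene Hmox1 were high on 3 of the 5, the 2 h and 4 h ones (9.6 to 10.1 for Dnajb1, 10.1 to 10.3 for Hmox1). The median of the fibroblast and mesenchyme markers was below their mean on each of the 5 arrays, by 0.05 to 0.42. On the same arrays the medians ran from -0.11 to 0.17 for cortical epithelium markers and from -0.16 to 0.53 for blood cell markers. The part of these shifts in the amino acid genes was not tested.

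With the array set as a block, the members' count past the test was 0 in all comparisons, beside 0.0631% of all tested probe sets for 2 h of TCDD, 0.0442% for 4 h, 0.0505% for 6 h and 0.29% for the average. The median of the amino acid genes at 4 h was then -0.03, and that of the chaperones -0.07. Their averages over the times moved to 0.03 and -0.04. At 4 h the larger set held 1 TCDD array and the other set no solvent array, so a 4 h effect within a set rests on 1 TCDD array.

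**Figure D5:**
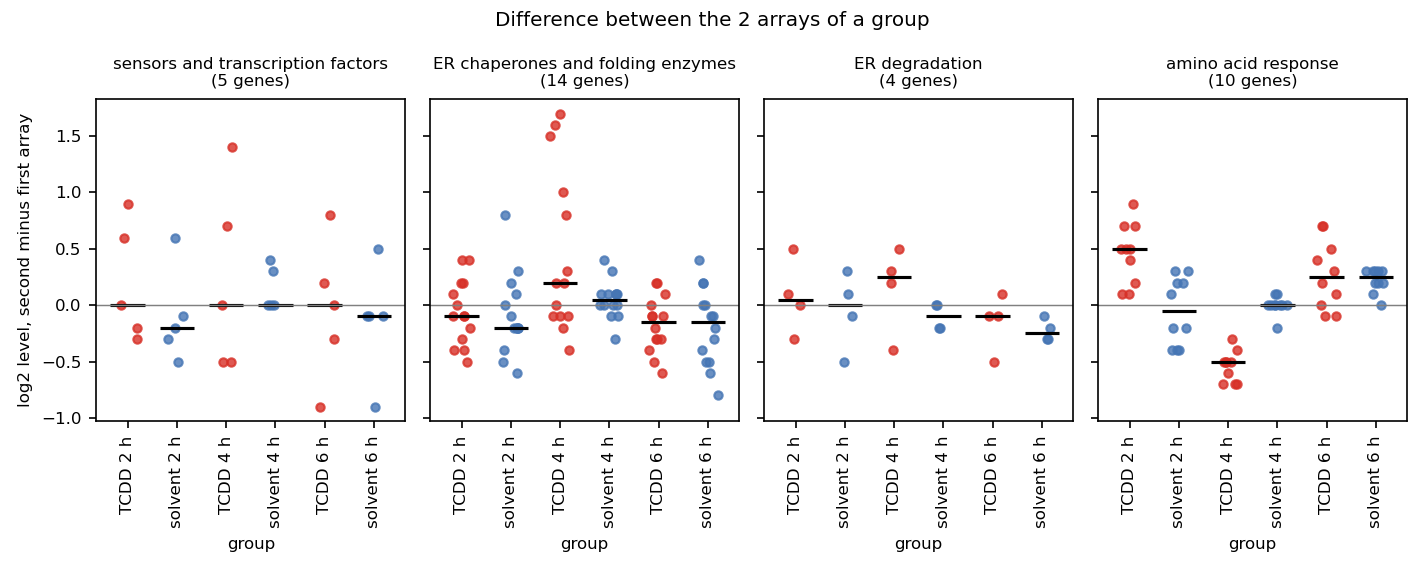
Second minus first array in log2 units (y axis) for each member, by group (x axis; red, TCDD; blue, solvent), with a panel for each subgroup and bars at the medians. In 2 h TCDD all 10 amino acid response genes are above 0, beside 6690 of all 15844 tested probe sets. In 4 h TCDD all 10 are below 0, beside 8514 of all, while Hsp90b1 reaches 1.7.

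Across the times, with both treatments averaged, Chac1 differed most. Chac1, a glutathione-degrading enzyme induced by ATF4 and the other gene with the ATF4 core in the sequences above, read 6.3 and 6.7 after 2 h with TCDD against 6.7 and 6.3 with solvent, 7.6 and 6.9 against 7.1 and 7.1 after 4 h, and 6.9 and 7.6 against 7.1 and 7.4 after 6 h. The 4 arrays at 2 h (6.3 to 6.7) lay below all later arrays (6.9 to 7.6), in both treatments, as they did for 0.221% of all tested probe sets. The difference was 0.67 ± 0.21 at 4 h against 2 h (95% interval 0.20 to 1.15; limma adjusted p = 0.99) and 0.75 ± 0.21 at 6 h against 2 h (0.28 to 1.22; limma adjusted p = 0.433), so neither passed. With the array set as a block the 6 h difference was 0.75 ± 0.17 (limma adjusted p = 0.201).

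The 6 h against 2 h difference of Dnajc3 was 0.43 ± 0.17 (limma adjusted p = 0.443), with all 4 arrays at 6.6 at 6 h and 6.0 to 6.3 at 2 h. Its other probe sets gave 0.45 to 0.70 in the same direction, and the difference did not pass. Hsp90b1 differed by 0.40 ± 0.31, Xbp1 by -0.33 ± 0.25 and Ppp1r15a by -0.28 ± 0.17. At 4 h against 2 h the count past the test was 0 of 33 members (0% of all tested probe sets), with 1 member and 450 probe sets at an unadjusted p under 0.05, and at 6 h against 2 h it was 0 of 33 (0% of all), with 2 members and 1753 probe sets (limma). The members' medians were 0.05 and 0, against 0 and -0.02 over all tested probe sets. The description of the 6 h solvent arrays gave 4 h, and the time comparison rests on their titles.

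Beyond the members, 5 wider lists of the same pathways held 109 genes, of which 99 were on the array and 97 were tested. Of these, 0 passed the test in any comparison between treatments or times, and for the TCDD average 6 of 97 had an unadjusted p under 0.05, beside 533 of all 15844 tested probe sets (limma). With the array set as a block, 1 of the 97 passed for the TCDD average, beside 46 of all 15844 (0.29%). The array set was drawn from these same values, so this call rests on a split that the tested values gave. The gene was Wfs1, named after its values were seen, which encodes wolframin, an ER membrane protein that restrains ER stress signalling. Wfs1 read 7.3 and 7.5 after 2 h with TCDD against 6.6 and 6.8 with solvent, 7.6 and 7.4 against 6.8 and 6.9 after 4 h, and 7.3 and 7.6 against 6.9 and 6.6 after 6 h. All 6 TCDD arrays lay above all 6 solvent arrays, as they did for 0.246% of all tested probe sets. The average was 0.68 ± 0.11 without the block (SE; limma adjusted p = 0.0761) and 0.66 ± 0.10 with it (limma adjusted p = 0.0358). At 2 h, 15 of 16 genes of amino acid transport and synthesis had a log2 change above 0 (median 0.20), and 15 of 18 aminoacyl-tRNA synthetase genes (median 0.17), beside 6943 of all 15844 tested probe sets (median 0). The 26 genes of ER folding and secretory entry had a median of 0 at 2 h. At 4 h the genes above 0 were 10 of 16 for transport and synthesis (median 0.20) and 8 of 18 for the synthetases (median -0.05), and 22 of 26 folding and entry genes were below 0 (median -0.13), beside 7353 of all tested probe sets below 0. At 6 h they were 5 of 16 for transport and synthesis and 5 of 18 for the synthetases, each with a median of -0.05, which was also the median of all tested probe sets. As with the amino acid members, the second 2 h TCDD array was high for the transport and synthesis genes and the synthetases. On it 15 of 16 and 14 of 18 genes lay above their means, beside 7853 of all 15844 tested probe sets. Averaged over the times, the medians of the 5 lists lay between -0.07 and 0.09.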

How the data were processed

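RNA of 12 ET cell samples was hybridised to Affymetrix arrays. The deposited values are RMA-normalized log2 levels per probe set with 1 decimal, per the submitters' processing notes and the file itself; background correction and quantile scaling in RMA fix each array's distribution (every array has a median of 5.1) and would remove a shift common to all genes. Levels of different probe sets are not compared.

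Probe sets were named through the platform annotation. Those with a mean log2 level under 3.98 (the 30th percentile) were left out, which left 15844. The tests came from limma 3.58.1 (R 4.3.3), in a model of 6 group means with 6 residual degrees of freedom. P-values were adjusted by Benjamini-Hochberg over all 15844 with a threshold of 0.05, and intervals are 95%. The number of arrays limits the precision. The procedure was tested on simulated data.

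Values on every array are given for the 2 genes of each subgroup with the largest TCDD average or 6 h against 2 h difference, and for Atf4, Xbp1, Ddit3 and Hspa5. The members and lists were chosen with earlier results of these data known. Arrays of the same number deviated together at 2 h (r = 0.37 across probe sets) and 6 h (0.71), and weakly at 4 h (0.16). They did so between 2 h and 6 h groups as well (0.24 to 0.37). Between 4 h groups and the other times r ran from -0.55 to 0.06. The 4 h TCDD arrays deviated opposite to 2 h TCDD (-0.55), 6 h solvent (-0.53) and 6 h TCDD (-0.30), with 0.06 for 2 h solvent. No label states a pairing. Alternatives were filters, variance settings, blocks, scaling, probe set means and leaving out each array.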

Additional observations from a re-analysis of the deposited data

How the results depend on the processing

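Under 21 to 23 alternatives per comparison, 0 of the 33 members passed the test in any of the 7 comparisons, leaving out each array included (range 0 to 0). Of 4389 member values, 217 changed sign, none of them called. The replicate block, over all arrays or within each time, gave 0 members, with 13 or 16 of all probe sets for the TCDD average against 15 without it, and changed no member's call. The counts over all probe sets moved more: 0 to 10 at 2 h (3 as reported), 0 to 59 at 4 h (2; 59 without the second 4 h TCDD array), 0 to 11 at 6 h (1) and 10 to 46 for the average (15; 46 with the array set as a block, 24 without either 4 h TCDD array); the cause was not tested. The smallest adjusted p of a member was 0.0663 at 4 h without the second 4 h TCDD array (limma). In the 7 arrays of the larger set, an alternative chosen after seeing the data, it was 0.111 for the average and 0.089 for Chac1 at 6 h against 2 h, and the amino acid median of the average was -0.11. That median was 0.08 as reported, -0.02 without the first 4 h TCDD array and 0.01 without the second 2 h TCDD array. Fits that leave out an array assume that the lone array left varies like the other groups.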
